A study of Homo sapiens with 6 samples.

Results

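The genes described here encode 10 abundant plasma proteins of hepatocytes: alpha-2-macroglobulin (A2M), the fetuins (AHSG and FETUB), the bikunin precursor (AMBP), the inter-alpha-inhibitor heavy chains (ITIH1, ITIH2, ITIH3 and ITIH4), haptoglobin (HP) and hemopexin (HPX). They were chosen by name, and all 10 were found among the 23368 genes of the deposited table. RNA came from HepG2, an established human liver cancer cell line. In 3 libraries (EV, replicates a, b and c) the cells stably carried a non-targeting control hairpin RNA in the pLKO vector, and in 3 others (shCHROME, replicates a, b and c) a hairpin against the variants of CHROME, a long noncoding RNA. Both groups were therefore transduced with lentivirus made in HEK293T cells, and the titles of the knockdown libraries name a single hairpin. The labels do not state whether the replicates are separate cultures; p-values here therefore reflect the variation among these libraries, possibly technical only.

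These proteins are secreted by the liver and bind what must be kept from circulating freely. Alpha-2-macroglobulin traps proteases of many classes and is then cleared by the receptor LRP1. Bikunin, cut from the AMBP precursor together with alpha-1-microglobulin, is a Kunitz-type protease inhibitor whose chondroitin sulfate chain carries the heavy chains, and the heavy chains can be passed on to hyaluronan. Fetuins are cystatin-related proteins, of which fetuin-A (AHSG) keeps calcium phosphate in solution and fetuin-B (FETUB) inhibits a metalloprotease of the egg. Haptoglobin binds free haemoglobin and hemopexin binds free haem. HP, HPX, ITIH3 and ITIH4 are known to rise in the acute phase response to interleukin-6, while AHSG falls.

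The recovered library totals lay between 29188213 and 35429420 reads. CHROME is not analysed here, so no knockdown level stands beside the results. The liver identity of the line was checked on 10 hepatocyte markers, and all 10 were measured, albumin (ALB) at 722799 ± 28364 normalized counts in EV (SD, n = 3). Of these markers 7 fell in shCHROME, beside 6.87% of all genes tested, and 3 (APOB, FGB and HNF4A) were not called. The summed level of all 10 was 1451499 to 1571077 normalized counts in EV and 1163168 to 1362451 in shCHROME, without overlap. The part of this fall in the differences of the 10 genes was not tested. In bulk libraries, fewer cells of a type and less RNA per cell cannot be told apart. Of the stellate and fibroblast markers, DCN was listed at 0 and COL1A1, COL3A1 and LUM were at most 1.01 normalized counts on average, and 1 of 3 tested fell, PDGFRB (adjusted p = 0.000257); the list summed to 1721 to 1928 in EV and 1587 to 1896 in shCHROME. The 4 tested endothelial markers had adjusted p of 0.182 or more, CLEC4G was listed at 0, and the sum of the list was 1070 to 1117 in EV and 937.8 to 1034 in shCHROME. Among macrophage and blood markers HBB was listed at 0 and PTPRC and CD163 were below 1 on average. Of 3 tested LYZ rose, and CD68 and CD14 were not called (adjusted p = 0.942 and 0.944). LYZ made up nearly all of a sum of 5120 to 5177 in EV and 5587 to 7105 in shCHROME. Among cholangiocyte markers 1 of 3 tested rose, KRT19, with sums of 6992 to 8252 and 7624 to 7982. For the packaging cells NEFL and NEFM were listed at 0, and CDH2, which fell, made up nearly all of a sum of 3080 to 3214 in EV and 2598 to 2760 in shCHROME. The part of these lists in the results below was not tested either.

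The sequences before the gene starts are shown first. RefSeq windows (build GRCh38.p14) were at hand for 7 of the 10 genes, and not for A2M, HP and ITIH2. The following 4 are the 250 bases before the annotated start, written 5′ to 3′ on the gene's own strand. ITIH3 and AMBP are shown because both fell, AHSG because it was abundant and was not called, and ITIH4 because it lies next to ITIH3 on chromosome 3 but had almost no reads. Capitals mark matches to the motifs named after them.
ITIH3 (chr3:52794546-52794795, plus strand): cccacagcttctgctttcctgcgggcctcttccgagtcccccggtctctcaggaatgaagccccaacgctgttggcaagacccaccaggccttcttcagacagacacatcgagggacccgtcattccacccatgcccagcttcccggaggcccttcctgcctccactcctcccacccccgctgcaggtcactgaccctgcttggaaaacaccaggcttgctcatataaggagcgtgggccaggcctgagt
AMBP (chr9:114078301-114078550, minus strand): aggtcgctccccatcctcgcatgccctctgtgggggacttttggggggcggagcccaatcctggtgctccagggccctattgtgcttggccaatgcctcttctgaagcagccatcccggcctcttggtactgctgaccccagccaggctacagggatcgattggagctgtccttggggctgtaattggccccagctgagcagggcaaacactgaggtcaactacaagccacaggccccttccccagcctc
AHSG (chr3:186612810-186613059, plus strand): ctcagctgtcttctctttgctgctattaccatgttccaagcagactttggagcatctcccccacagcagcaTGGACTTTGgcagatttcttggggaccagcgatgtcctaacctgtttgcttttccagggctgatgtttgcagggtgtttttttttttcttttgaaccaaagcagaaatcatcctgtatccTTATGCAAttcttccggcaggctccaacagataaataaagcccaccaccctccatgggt
ITIH4 (chr3:52830673-52830922, minus strand): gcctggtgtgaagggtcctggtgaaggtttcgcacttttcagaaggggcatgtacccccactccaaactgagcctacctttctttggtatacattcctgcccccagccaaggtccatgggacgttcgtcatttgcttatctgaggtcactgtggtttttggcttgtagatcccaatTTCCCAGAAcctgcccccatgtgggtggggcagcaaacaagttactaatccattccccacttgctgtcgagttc

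On both strands of these windows 6 short motifs of liver and acute phase factors were searched: TTCNNNGAA (bound by STAT factors), CTGGGAA (part of type 2 acute phase elements), TTGCNNAA (C/EBP), GTTAAT, CAAAGTCCA (HNF4A) and TGTTTAC (FOXA). ITIH3 and AMBP held none of them. AHSG held TTGCNNAA 59 to 52 bases before its start and CAAAGTCCA 179 to 171 bases before it, both on the minus strand. ITIH4 held TTCNNNGAA 74 to 66 bases before its start, and CTGGGAA, at 74 to 68 on the minus strand, lies within that match. Among all 35116 RefSeq windows of the same length, 0.325% held CAAAGTCCA, 9.05% TTGCNNAA, 6.57% TTCNNNGAA and 9.15% CTGGGAA. Of the others, HPX held CTGGGAA and TTGCNNAA, and FETUB held 1 of these in each of its 2 windows. None of the 3 windows of ITIH1 had a match, but those starting at 52779671 and 52779676 are nearly the same sequence. Whether any of the 3 lies before the main start of ITIH1 was not checked. The lack of a match in them therefore does not describe the promoter of ITIH1. GTTAAT (6.23% of all windows) and TGTTTAC (2.98%) were in no member's window. A match shows only that these letters are present.

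The 10 genes spanned a wide range of levels. Compared per kilobase of transcript (normalized counts divided by the length of the principal GENCODE transcript), AHSG and A2M stood highest in EV, at 59861 and 59562 on average, and their libraries overlapped (55440 to 62422 and 56578 to 61575). ITIH2 followed at 31276, AMBP at 26558, ITIH3 at 11738 and HP at 1450 per kilobase, each separated from its neighbours in that order. FETUB (38.89), ITIH1 (24.3), HPX (16.45) and ITIH4 (0.7671) formed a low group, in which ITIH1 and HPX overlapped. In shCHROME the order was the same, but A2M at 41521 per kilobase no longer overlapped AHSG at 57460, and HPX no longer overlapped ITIH1.

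**Figure D1:**
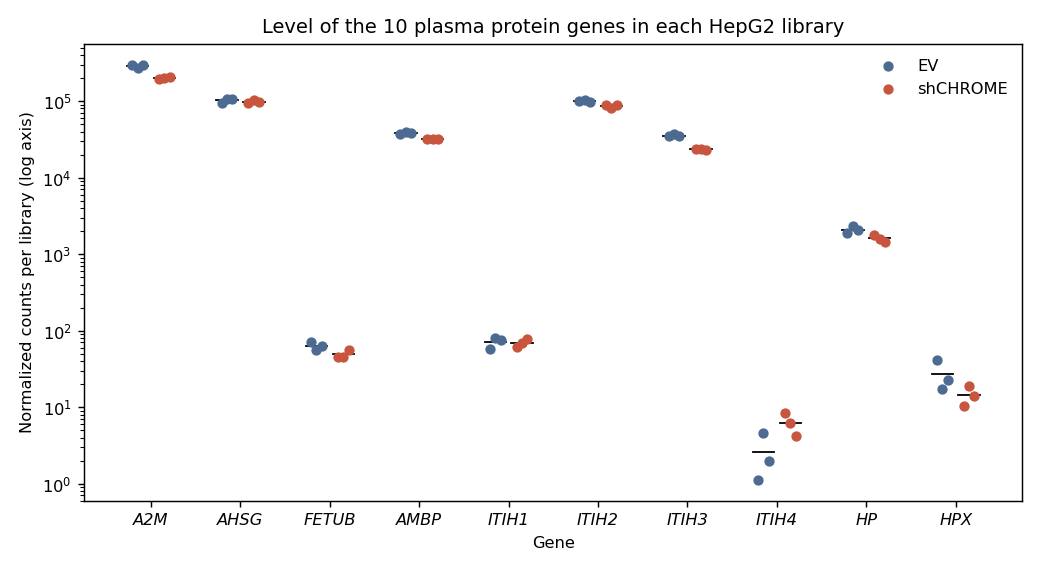
Normalized counts (log axis) of each gene in the 3 EV libraries (blue) and the 3 shCHROME libraries (red), with a bar at each group's mean. Counts are not divided by transcript length, so heights compare libraries within a gene, not genes. Red lies wholly below blue for A2M, AMBP, ITIH2, ITIH3 and HP.

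Of the 10 genes 9 passed the filter on low counts and were tested; ITIH4 did not pass. Of the 9, 5 fell in shCHROME and none rose (limma, adjusted p under 0.05 over all genes). In the same fit 6.87% of the 14598 genes tested fell and 3.64% rose. Those are 1003 and 532 genes; with libraries scaled to their totals 702 fell and 936 rose, and 4 members fell. With an unadjusted p under 0.05, 6 members were lower and 0 higher, and edgeR and DESeq2 on the recovered reads also gave 5 lower and 0 higher. In the same 5 genes every shCHROME library lay below every EV library, which held for 15% of all genes tested. The log2 fold change was negative in all 9, with a median of -0.37 against 0.009 over all genes. The members were selected with earlier results known, so these shares describe them and are no test of the group. With shCHROME replicate c left out, 3 members fell and the calls of HP and ITIH2 were lost.

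**Figure D2:**
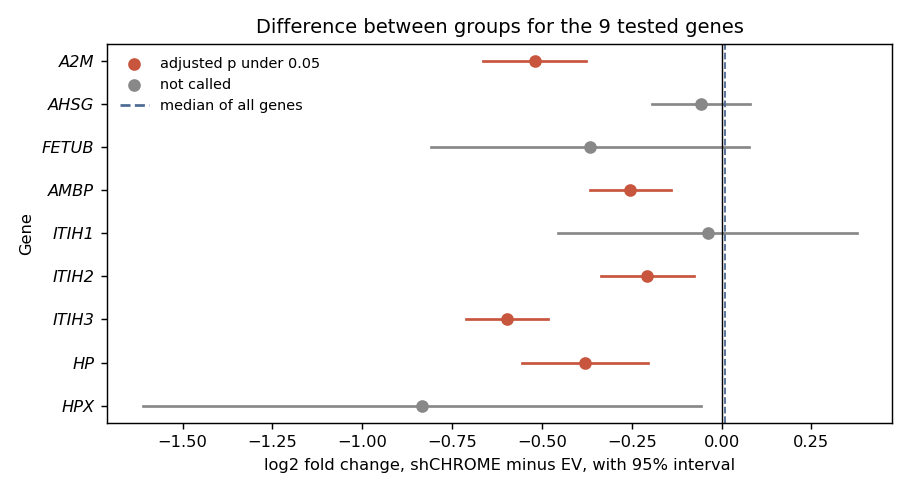
The log2 fold change (shCHROME minus EV, on log2 of normalized counts plus 1) of the 9 tested genes with its 95% interval from limma; red marks an adjusted p under 0.05 and the dashed line the median of all genes. ITIH3 and A2M lie farthest left among the called genes, and the interval of HPX is the widest.

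A2M (Ensembl ENSG00000175899, chromosome 12) was the protease trap. It had 298268, 274064 and 293218 normalized counts in EV replicates a, b and c, and 196152, 199221 and 208009 in shCHROME. The highest shCHROME library was far below the lowest EV library. The means were 288517 ± 12769 and 201127 ± 6154 (SD, n = 3 per group), a 1.43-fold fall (log2 fold change -0.52, SE 0.068, limma adjusted p = 6.88e-05). Of the 50-base windows of its transcript 4.36% also occur in another gene, mostly in PZP, the pregnancy zone protein, which lies beside it. PZP itself had 18.49 ± 3.662 normalized counts in EV and 10.74 ± 1.262 in shCHROME and did not pass the test (log2 fold change -0.72, adjusted p = 0.236).

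Genes related to A2M encode proteins of the same family, which includes complement C3 and C5, or proteins that bind it. Of 8 tested genes of that list 2 fell and none rose, beside 6.87% lower and 3.64% higher over all genes tested. With an unadjusted p under 0.05, 3 were lower and 0 higher, and edgeR and DESeq2 each gave 2 lower and 0 higher. Complement C5 fell 1.2-fold, from 22890 ± 406.6 to 19104 ± 2225 normalized counts (adjusted p = 0.0183), and the endoplasmic reticulum chaperone HSPA5 1.16-fold (adjusted p = 0.0246). The call of C5 was lost without EV replicate a or without shCHROME replicate b or c (adjusted p up to 0.0602), and that of HSPA5 in 6 of 15 alternatives, EV replicate a or c or shCHROME replicate c left out among them (up to 0.143). LRP1, the receptor for A2M complexes, had 29981 ± 5259 normalized counts in EV and 24276 ± 3521 in shCHROME and did not pass the test (log2 fold change -0.30, adjusted p = 0.0807). Complement C3 had a log2 fold change of -0.14 (adjusted p = 0.227). C4A and C4B, near-identical copies, were listed at 0 in every library; how the counting treated reads that fit both copies is unknown.

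AHSG (ENSG00000145192) and FETUB (ENSG00000090512) lie side by side on chromosome 3. AHSG had 94857, 106803 and 105608 normalized counts in EV and 94209, 102224 and 98509 in shCHROME. The groups overlapped, and the log2 fold change of -0.06 had a 95% interval of -0.20 to 0.08 (limma adjusted p = 0.648). FETUB had far fewer reads, 188 in EV and 145 in shCHROME. Its values were 71.36, 55.76 and 62.73 normalized counts in EV and 44.83, 45.49 and 56.34 in shCHROME, where replicate c lay above the lowest EV library. The log2 fold change was -0.37, with an interval of -0.81 to 0.08 (adjusted p = 0.305).

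Other cystatin-domain genes, near the fetuins and on other chromosomes, were examined as a list. KNG1, the kininogen gene that follows HRG in the same stretch of chromosome 3, had 325.6, 343.7 and 367.4 normalized counts in EV and 91.53, 124.1 and 109.5 in shCHROME, a 3.19-fold fall (adjusted p = 4.01e-07). It was the 1 gene of 3 tested in this list that fell, and none rose (0 at an unadjusted p under 0.05, and 0 by edgeR or DESeq2). CST3 on chromosome 20 (log2 fold change -0.008, adjusted p = 0.961) and CSTB on chromosome 21 (0.043, adjusted p = 0.845) were not called. Over all genes tested, 6.87% fell and 3.64% rose. HRG, the histidine-rich glycoprotein gene between FETUB and KNG1, had 23.41, 19.2 and 7.966 normalized counts in EV and 6.538, 4.136 and 1.063 in shCHROME, and was under the filter, so it had no test. All 3 of its shCHROME libraries were below all 3 EV libraries, which held for 15% of all genes tested, a set without HRG. The closest values were 7.966 in EV replicate c and 6.538 in shCHROME replicate a. In those libraries 1 read stood for 0.995698 and 0.934029 normalized counts, so this order rests on few reads.

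AMBP (ENSG00000106927, chromosome 9), the source of bikunin, had 37160, 39018 and 38075 normalized counts in EV and 31867, 32413 and 31504 in shCHROME. Both groups were tight, with a coefficient of variation of 2.44% in EV and 1.43% in shCHROME, and they did not overlap. From 38084 ± 928.9 to 31928 ± 457.6 the fall was 1.19-fold (log2 fold change -0.25, SE 0.054, limma adjusted p = 0.00481).

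The heavy chains of the inter-alpha-inhibitors did not move alike. ITIH3 (ENSG00000162267, chromosome 3) had 34573, 36648 and 34668 normalized counts in EV and 23557, 23716 and 22708 in shCHROME. From 35297 ± 1172 to 23327 ± 542, this 1.51-fold fall was the one with the smallest adjusted p of the 9 tested members (log2 fold change -0.60, SE 0.054, adjusted p = 1.33e-06). ITIH2 (ENSG00000151655, chromosome 10) had 99262, 102816 and 97513 in EV and 88833, 81439 and 89422 in shCHROME. The groups did not overlap, but the difference was small, from 99864 ± 2702 to 86564 ± 4449 or 1.15-fold (log2 fold change -0.21, SE 0.062, adjusted p = 0.0374). Its call was lost in 8 of 15 alternatives, among them scaling to library totals (adjusted p = 0.0846) and leaving out any single library but shCHROME replicate a, with adjusted p between 0.00512 and 0.127 over all of them.

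ITIH1 (ENSG00000055957), the next gene before ITIH3 on chromosome 3, was low in both groups. It had 57.98, 79.53 and 74.68 normalized counts in EV and 60.71, 68.24 and 76.53 in shCHROME, which overlapped throughout. Its log2 fold change of -0.04 had a wide interval, -0.45 to 0.38 (adjusted p = 0.939), and its sign turned in 4 of 15 alternatives, among them scaling to library totals (0.010). ITIH4 (ENSG00000055955), on the other side of ITIH3, had only 1, 5 and 2 reads in EV and 9, 6 and 4 in shCHROME. The totals were 8 reads in EV (exact Poisson 95% interval 3.454 to 15.76) and 19 in shCHROME (11.44 to 29.67), intervals that overlap and cover counting error only. With no filter its log2 fold change was 1.11 (adjusted p = 0.199). In GENCODE release 29 an overlapping entry on the same strand, AC006254.1, contains 82.4% of the 50-base windows of the ITIH4 transcript. No source at hand says how such reads were assigned, so a low count does not show a low level of ITIH4 RNA.

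Ratios of genes within a library do not depend on how libraries are scaled. The ratio of ITIH3 to ITIH2 counts was 0.3483, 0.3564 and 0.3555 in EV and 0.2652, 0.2912 and 0.2539 in shCHROME, 1.31-fold lower. The ratio of ITIH3 to AMBP counts was 0.9304, 0.9393 and 0.9105 in EV and 0.7392, 0.7317 and 0.7208 in shCHROME. In both ratios the groups stood apart. The ratio of AMBP to ITIH2, by contrast, overlapped, at 0.3744 to 0.3905 in EV and 0.3523 to 0.398 in shCHROME. Per kilobase of transcript, ITIH3 made up 27.27% ± 0.2482 of the summed heavy chain level in EV and 22.26% ± 1.218 in shCHROME (SD, n = 3). ITIH2 made up 72.67% ± 0.2575 and 77.67% ± 1.219. The summed heavy chain level over that of AMBP was 1.621 ± 0.0311 in EV and 1.568 ± 0.0778 in shCHROME, with overlap. These sums take ITIH4 as counted, and that count may be too low, so the shares describe counted reads only.

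A2M parted from AHSG in the same way. The ratio of A2M to AHSG counts was 3.144, 2.566 and 2.776 in EV and 2.082, 1.949 and 2.112 in shCHROME, 1.38-fold lower. The ratio of ITIH3 to A2M overlapped between the groups, at 0.1159 to 0.1337 in EV and 0.1092 to 0.1201 in shCHROME. Among the 6 members with a mean of at least 1000 normalized counts, 15 ratios could be formed, and the groups did not overlap in 9. The ratios share the same 6 genes and so restate one another in part. No share over other gene pairs is given here, so the count only describes these genes. The two-sided exact permutation p was 0.1 in each of those 9, the smallest that 3 against 3 libraries allow, and 0.167 adjusted over the 15 ratios, so this test could not reach 0.05.

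**Figure D3:**
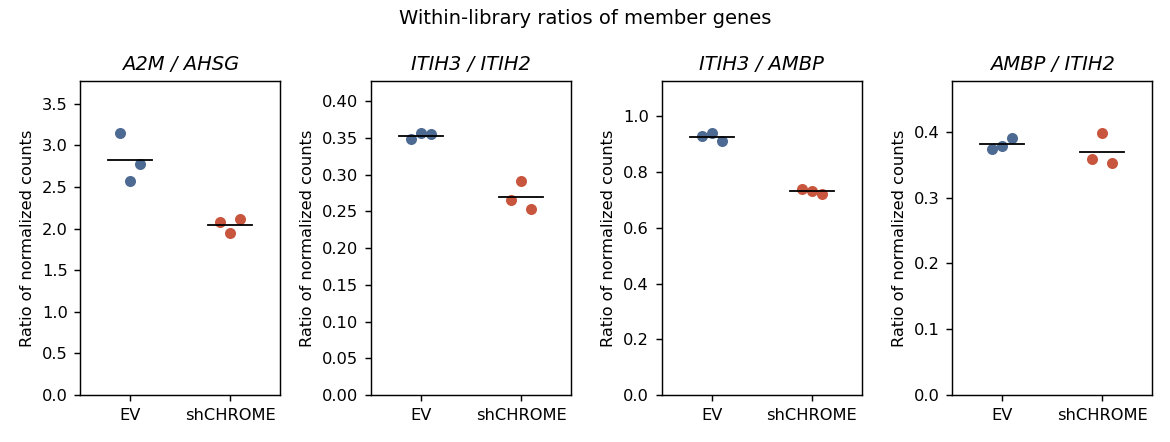
Ratio of normalized counts of gene pairs within each library (linear axes from 0) for EV (blue) and shCHROME (red), with a bar at the mean of the group. The ratios of A2M to AHSG, ITIH3 to ITIH2 and ITIH3 to AMBP are lower in every shCHROME library than in any EV library, and the ratio of AMBP to ITIH2 overlaps.

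Genes related to the inter-alpha-inhibitors, to hyaluronan or to the chondroitin sulfate chain were examined as lists. Of 10 tested relatives and hyaluronan partners 4 fell and none rose, beside 6.87% lower and 3.64% higher over all genes tested. With an unadjusted p under 0.05, 5 were lower and 0 higher, with 4 and 0 by edgeR and 3 and 0 by DESeq2. HYAL1, a lysosomal hyaluronidase, fell 1.39-fold, from 6276, 6706 and 6592 normalized counts in EV to 4388, 4998 and 4706 in shCHROME (adjusted p = 4.77e-05). HYAL3, of the same family, fell 1.66-fold (adjusted p = 0.003), while HYAL2 was not called (log2 fold change -0.06, adjusted p = 0.637). Of the Kunitz-domain genes in the list, APP, the amyloid precursor, and SPINT2, a membrane protease inhibitor, also fell. SPINT1 (log2 fold change 0.26, adjusted p = 0.49) and TFPI (-0.14, adjusted p = 0.149) were not called. APP fell 1.22-fold (adjusted p = 0.0176), a call lost without EV replicate a or shCHROME replicate b or c (up to 0.11). SPINT2 was at 16.13 ± 5.191 normalized counts in EV and 3.011 ± 2.061 in shCHROME (adjusted p = 0.0125, lost without EV replicate b or shCHROME replicate c, up to 0.0745). ITIH5, beside ITIH2 on chromosome 10, had a log2 fold change of 0.09 (adjusted p = 0.579). TNFAIP6, whose product moves heavy chains to hyaluronan, and the hyaluronan synthase HAS2 were listed at 0, and the hyaluronan receptor CD44 was below 2 normalized counts on average.

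Among 24 tested genes for chondroitin sulfate assembly and precursor cleavage, 4 fell and 3 rose, beside 6.87% lower and 3.64% higher over all genes tested. The median log2 fold change of the list was 0.017, and edgeR gave 2 lower and 3 higher and DESeq2 4 and 4. CHST15, a sulfotransferase of the chain, rose 2.54-fold, from 457.1, 438.8 and 384.3 normalized counts to 1091, 1119 and 1040 (adjusted p = 4.99e-08). CHSY3, a chain polymerase, rose 2.14-fold (adjusted p = 0.0053). FURIN, a protease that cuts secreted precursors, had 2421, 1727 and 1874 normalized counts in EV and 3114, 2983 and 2763 in shCHROME, a 1.48-fold rise (adjusted p = 0.000599). CHPF2, a polymerizing factor, fell 1.3-fold (adjusted p = 0.000635). The genes of the linker region that the chain starts from, such as FAM20B, B4GALT7 and B3GAT3, were not called.

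HP (ENSG00000257017, chromosome 16) had 1903, 2311 and 2061 normalized counts in EV and 1797, 1574 and 1451 in shCHROME. The lowest EV library, replicate a, and the highest shCHROME library, replicate a, were close, but the groups did not overlap. From 2092 ± 205.5 to 1607 ± 175.5 HP fell 1.3-fold (log2 fold change -0.38, SE 0.083, limma adjusted p = 0.00626), and the call did not hold with shCHROME replicate c left out (adjusted p = 0.0564). Of the 50-base windows of its transcript 33.1% also occur in HPR, the haptoglobin-related gene next to it, so the division of reads between the copies is uncertain. HPR had 222.1 ± 18.76 normalized counts in EV and 193.5 ± 13.29 in shCHROME (log2 fold change -0.20, adjusted p = 0.368).

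HPX (ENSG00000110169, chromosome 11) had 41.25, 17.37 and 22.9 normalized counts in EV and 10.27, 18.61 and 13.82 in shCHROME. EV replicate a stood above the other 5 libraries, and shCHROME replicate b was above the lowest EV library. These are 79 reads against 42, and the log2 fold change of -0.83 had an interval of -1.61 to -0.06 (adjusted p = 0.172). With EV replicate a left out it was -0.50 (adjusted p = 0.561).

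Of 13 tested genes for haemoglobin and haem, 4 fell and none rose, beside 6.87% lower and 3.64% higher over all genes tested. With an unadjusted p under 0.05, 5 were lower and 0 higher, and edgeR and DESeq2 each gave 4 lower and 0 higher. HMOX1, the inducible haem oxygenase, had 528.5, 637.1 and 557.6 normalized counts in EV and 355.9, 399.1 and 413.5 in shCHROME, a 1.47-fold fall (adjusted p = 0.00138). APOL1, which travels with the HPR protein in plasma, fell 1.45-fold (adjusted p = 0.000637). Transferrin (TF) fell 1.18-fold (adjusted p = 0.014) and the folate and haem carrier SLC46A1 1.2-fold (adjusted p = 0.011), and neither call held when replicate c of either group was left out (up to 0.0621 and 0.0586). HMOX2, the constitutive haem oxygenase, had a log2 fold change of 0.015 (adjusted p = 0.921). CD163, the receptor for haptoglobin with haemoglobin, had 0.3047 normalized counts on average in EV and was listed at 0 in shCHROME.

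The genes listed as acute phase reactants did not move as one, and the list was not split by the direction each takes in that response. Of 15 tested, 4 fell, 1 rose and 10 were not called, beside 6.87% lower and 3.64% higher over all genes tested. With an unadjusted p under 0.05, 4 were lower and 4 higher; edgeR gave 4 lower and 1 higher, and DESeq2 4 and 2. C4BPA, a complement inhibitor, fell 1.51-fold (adjusted p = 7.79e-06), transthyretin (TTR) 1.65-fold (adjusted p = 0.000186) and alpha-1-antitrypsin (SERPINA1) 1.2-fold (adjusted p = 0.0097, up to 0.054 when replicate c of either group was left out). The 1 rise called by limma was that of SAA4, the constitutive serum amyloid A gene (1.73-fold, adjusted p = 0.00284). SAA2 was not called (log2 fold change 0.75, adjusted p = 0.189), and SAA1 and APCS were listed at 0. The orosomucoids, the fibrinogen chains and SERPINA3 were not called; the log2 fold change of FGG was 0.008 (adjusted p = 0.969) and that of ORM1 0.017 (adjusted p = 0.903).

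The list for the interleukin-6 and STAT3 route also holds receptors of other cytokines. Of its 18 tested genes 2 fell and none rose, beside 6.87% lower and 3.64% higher over all genes tested. With an unadjusted p under 0.05, 3 were lower and 2 higher, and edgeR and DESeq2 each gave 2 lower and 0 higher. The interleukin-1 receptor gene IL1R1 fell 1.32-fold (adjusted p = 0.000493) and the receptor gene LIFR 1.16-fold (adjusted p = 0.0313, lost in 6 of 15 alternatives, up to 0.108, with any EV library or shCHROME replicate a left out among them). IL6 was listed at 0, and IL6R, JAK1, JAK2 and TYK2 were not called. STAT3 had a log2 fold change of 0.027 (adjusted p = 0.822) and the receptor chain IL6ST of -0.044 (adjusted p = 0.713). Of 12 liver-enriched transcription factors, 2 rose and none fell, beside 3.64% higher and 6.87% lower over all genes tested. With an unadjusted p under 0.05, 4 were higher and 0 lower, with 2 and 0 by edgeR and 1 and 0 by DESeq2. ONECUT1 rose 1.48-fold (adjusted p = 0.0228, lost without EV replicate a or b or shCHROME replicate b or c, up to 0.136). NR5A2 went from 2.23, 0 and 6.97 normalized counts in EV to 13.08, 11.37 and 19.13 in shCHROME (adjusted p = 0.0269, lost without EV replicate b or shCHROME replicate b or c, up to 0.14). HNF4A had a log2 fold change of -0.029 (adjusted p = 0.831).

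**Figure D4:**
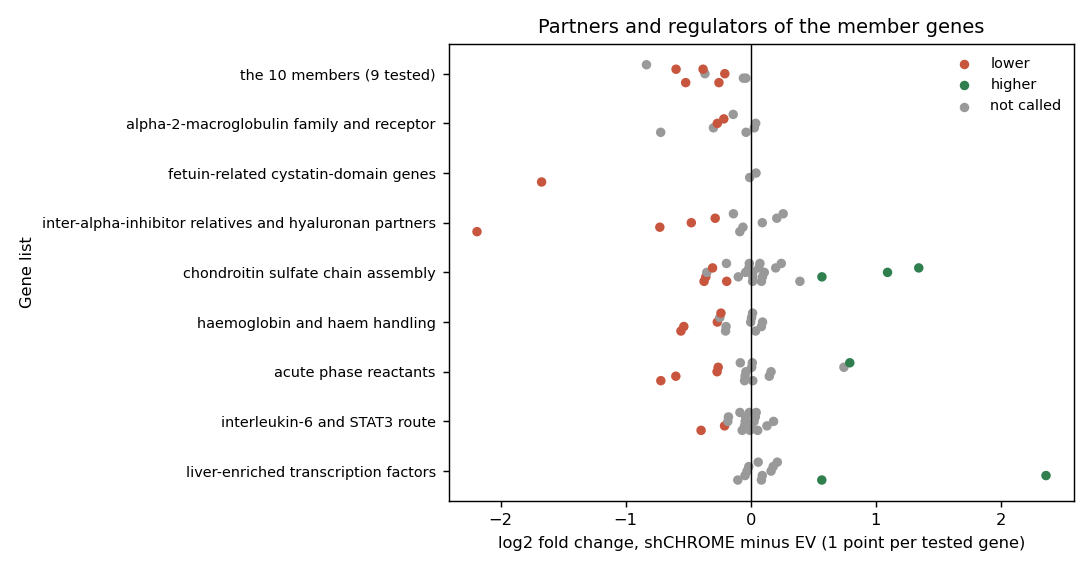
The log2 fold change (shCHROME minus EV) of each tested gene, 1 point per gene, for the members and the 8 lists of partners and regulators; red marks genes that fell, green genes that rose and grey genes not called, and vertical offsets only separate points. The called members lie between -0.60 and -0.21, while the chondroitin sulfate and acute phase lists have called genes on both sides.

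The genes beside the members on the chromosomes, by RefSeq order in GRCh38.p14, were mostly not called. Of 28 neighbouring genes that are no members, 23 were tested, 4 fell and none rose (2 higher at an unadjusted p under 0.05, 0 by edgeR and 0 by DESeq2). Over all genes tested, 6.87% fell and 3.64% rose, so the share of neighbours that fell was above that of all genes. Around AMBP, RGS3 and COL27A1 each fell 1.33-fold (adjusted p = 0.00209 and 0.00214) and KIF12 had a log2 fold change of -0.32 (adjusted p = 0.116), while ZNF618 was under the filter. Beyond HPX, ARFIP2 fell 1.32-fold (adjusted p = 0.000424), while SMPD1, APBB1 and TRIM3 were not called. KNG1, 2 places from FETUB, was the fourth. On the side of ITIH1 away from ITIH3, NEK4 had a log2 fold change of 0.15 (adjusted p = 0.209) and SPCS1 of -0.07 (0.578). Around HP, DHODH had 0.21 (0.151), PKD1L3 -0.33 (0.515) and TXNL4B -0.24 (0.0514), and TXNL4B passed the test in 4 of 15 alternatives, without shCHROME replicate a among them (down to 0.0411). Next to A2M, KLRG1 had 0.15 (0.839) and M6PR -0.12 (0.361); before AHSG, DNAJB11 had 0.06 (0.638) and TBCCD1 0.095 (0.604); and around ITIH2, SFMBT2 had 0.15 (0.477), KIN 0.15 (0.303) and ATP5C1 0.03 (0.827).

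The genes with profiles nearest to those of the called members were found by the root-mean-square difference of log2 values centred on each gene, over 6 libraries and 8302 genes with a mean of at least 500. For A2M they were MSX1 (0.037, 1.42-fold lower), OSBPL10 (0.037, 1.41-fold) and LIPA (0.043, 1.41-fold). For ITIH3 they were EMP2 (0.036, 1.47-fold), ERO1LB (0.043, 1.51-fold) and ZNF581 (0.045, 1.47-fold). For AMBP they included LMBR1L (0.012) and VCP (0.018), of which LMBR1L was not called (adjusted p = 0.0523, down to 0.047 in 3 of 15 alternatives). For ITIH2 they were COPB1 (0.013), AKR1C3 (0.016) and NRAS (0.020), whose calls were lost in 8, 4 and 6 alternatives (adjusted p up to 0.135, 0.0618 and 0.122). For HP they were SLC16A5 (0.037), APOL2 (0.050) and SQRDL (0.057), with calls lost in 7, 1 and 6 (up to 0.167, 0.0509 and 0.151). Leaving out a library ended the call of COPB1 for any but shCHROME replicate a and of AKR1C3 for any EV library. For NRAS these were EV replicates a and b and shCHROME replicates b and c, for SLC16A5 and SQRDL replicates b and c of either group, and for APOL2 shCHROME replicate c. All of these compare the same 6 libraries, so likeness to a member restates a like fall.

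In the authors' deposited table the same 5 genes had an adjusted p under 0.05 among the 9 with a value, all lower, against 6.02% of its genes. The mean in the authors' deposited table differed by over 1% from the mean of these 6 libraries for 7907 of the 11274 genes with a mean of at least 100, and for the members it was 0.841 to 1.07 times that mean. Its statistics may therefore not come from these 6 columns alone. The log2 fold changes of the authors' deposited table were -0.57 for ITIH3, -0.49 for A2M, -0.33 for HP, -0.23 for AMBP and -0.19 for ITIH2, with adjusted p of 2.85e-19, 5.92e-14, 0.00394, 0.027 and 0.0273. For HPX and FETUB, with few reads, that table gives -0.22 and -0.20, nearer to 0 than the values here.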

How the data were processed

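Libraries were prepared from total RNA (TruSeq, Illumina), per the labels' protocols. The submitters' processing notes name STAR 2.5 and featureCounts 1.5.2, the build hg19, and DESeq2 with 3.4 as its version; annotation and strand setting were not found in the sources used here. The deposited table gives, for every gene and library, a normalized signal (reads divided by a size factor). Beside it stand a mean, a log2 fold change and a p-value, raw and adjusted, from the authors.

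From its 24656 rows 1288 repeated rows were dropped. Whole reads were recovered from the value of 1 read in each library (0.914083 to 1.114941; 100% of values whole within 0.01 reads). Chi-square per degree of freedom between replicates was 5.75 to 17.2, so none was a copy. The main test was limma (version 3.58.1, trend on) of log2(value + 1), group as the only term, over the 14598 genes kept by filterByExpr of edgeR 4.0.16, with Benjamini-Hochberg adjustment. Fold changes are on that scale, which understates changes of low genes. Intervals are 95%. Alternatives were edgeR quasi-likelihood and DESeq2 1.42.0 on recovered reads, 3 scalings, a pseudocount of 0.1, 2 filters, the letter as a replicate block, and each library left out in turn. The scripts were tested on simulated data.

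The members, lists, motifs and tests were chosen with earlier results of these data known. Named genes were the members, up to 4 called genes per list (or its most abundant gene), 2 neighbours on each side and the 3 nearest profiles of each called member; further genes are named as examples chosen after their values were seen, and some named results are not reported here. Transcript lengths and 50-base windows came from GENCODE release 29, promoters and gene order from RefSeq, and no coordinates were converted. Motifs were searched in the 250 bases before each start only, leaving out the transcribed bases of the windows.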

Additional observations from a re-analysis of the deposited data

How the results depend on the processing

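Over 15 alternatives A2M, AMBP and ITIH3 kept their call in each, HP lost it without shCHROME replicate c, and ITIH2 lost it in 8; none of the 5 changed direction. The number of members that fell was 3 to 5 with 1 library left out and 4 or 5 under the other alternatives, with 4 under the replicate block, where ITIH2 lost its call (adjusted p = 0.102). Over all genes, 600 to 1056 fell and 245 to 540 rose with 1 library left out (600 and 245 with shCHROME replicate c left out, 633 and 301 with EV replicate a, 650 and 324 with EV replicate c), against 1003 and 532. Libraries scaled to their totals gave 936 higher and 702 lower, and the replicate block 349 higher and 764 lower. Same-lettered libraries of the groups had deviations correlated at -0.111, -0.26 and 0.0497 (Pearson, 11274 genes). Each EV library correlated best with a shCHROME library of another letter. The deviations were taken from each group's own mean, which ties these correlations to each other. They therefore cannot decide whether libraries of the same letter were made together. ITIH1 turned to a log2 fold change of 0.010 with library totals, and lay between -0.174 and 0.051 with 1 library left out. Among uncalled neighbours the sign also turned, with 1 library left out, for KLRG1 (-0.066 to 0.315), DNAJB11 (-0.016 to 0.126), TRIM3 (-0.157 to 0.064) and ITIH5 (-0.009 to 0.189). Of 40 other named genes that were called, 23 kept the call in all alternatives and 17 lost it in at least 1, with none reversed. FETUB, HPX, ITIH1 and ITIH4 rest on few reads, and their part in the missing calls was not tested. ITIH4 was tested only with no filter.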
